A study of Mus musculus with 3 samples.

Results

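The 7 genes F3, F8, Vwf, Thbd, Procr, Tfpi and Plat, which encode coagulation and anticoagulant proteins associated with endothelium, were followed across the cell classes of a mouse liver single-cell data set and between central and portal sinusoidal endothelial cells. They were chosen by symbol from the 31053 genes of the deposited matrix, and all 7 were present in it. The study injected Ai14 mice, which carry the LSL-Tomato Cre reporter, with Cre mRNA in 20a-LNP or in 20mix-LNP at 0.3 mg/kg, or with PBS, and collected stained and sorted liver non-parenchymal cells 3 h later. The matrix holds 3 libraries, 1 per treatment, under the barcode suffixes 1, 2 and 3. No source used here ties a suffix to a treatment, nor gives the number, age or sex of the mice, so no treatment was compared, and the members' levels in the main comparisons are also given by suffix.

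Coagulation is started by tissue factor, the product of F3, which binds factor VIIa. Factor VIII, the product of F8, is the cofactor of factor IXa and circulates bound to von Willebrand factor, the product of Vwf, which also tethers platelets. Tissue factor pathway inhibitor (Tfpi) blocks the tissue factor complex and factor Xa. Thrombomodulin (Thbd) turns thrombin into an activator of protein C, and the endothelial protein C receptor (Procr) presents protein C to it. Tissue plasminogen activator (Plat) starts the breakdown of fibrin. Liver sinusoidal endothelial cells (LSECs) line the capillaries between hepatocyte plates, run from the portal tract to the central vein, and are a known source of factor VIII, whereas endothelium of larger vessels is known for von Willebrand factor stored in Weibel-Palade bodies.

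The matrix held 4638 barcodes and 24111183 unique molecular identifiers (UMIs), each of which stands for 1 captured transcript molecule. After removal of barcodes with under 200 genes, over 20% mitochondrial UMIs or a doublet call, 3207 cells stayed, 755, 1110 and 1342 under suffixes 1, 2 and 3, with a median of 5669 UMIs per cell. Each pair of libraries shared 1 barcode sequence. A cell was placed in a class when its lineage markers had at least 3 UMIs from at least 2 markers and at least 3 times the marker UMIs of every other class, and no member served as a marker. The gates placed 2216 cells, of which 889 were LSECs (223, 143 and 523 by suffix) and 1323 were other, non-endothelial cells, while 991 kept cells entered no class. All 7 LSEC markers (Stab2, Clec4g, Oit3, Gpr182, Lyve1, Bmp2 and Flt4) were detected in the LSEC gate, where they summed to 11547 UMIs per 1000000 UMIs of the class (CPM), against 107 CPM for the class next in order, Kupffer cells. The gate itself uses these markers, so that contrast is built in and is no separate check of the class. The vascular endothelial gate held only 4 barcodes with a median of 1554 UMIs and 3 of its 7 markers detected, and 21 further barcodes passed both the LSEC and the vascular gate and were kept apart. Cells are not replicates, and the 3 libraries come from different treatments that cannot be assigned to them, so they were not taken as replicates of a group and no test was made. Directions are given by library. Levels are CPM of summed UMIs with exact Poisson 95% intervals, shares have exact Clopper-Pearson intervals, and both cover counting error only. Because cells were sorted, the shares of the classes follow the sort.

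In the GRCm38 GENCODE annotation, F8 lies on chromosome X from 75172715 to 75382615 on the minus strand and overlaps Gm6039, Gm8522 and Fundc2. Thbd, a gene with 1 exon, lies on chromosome 2 from 148404466 to 148408188 on the minus strand. Tfpi lies on chromosome 2 from 84432855 to 84476775 on the minus strand, and Procr on chromosome 2 from 155751117 to 155755471 on the plus strand. Vwf lies on chromosome 6 from 125546774 to 125686679, F3 on chromosome 3 from 121723537 to 121735048 and Plat on chromosome 8 from 22757727 to 22782844, all on the plus strand. The genes thus sit at separate loci. The RefSeq promoter table (GRCm38.p6, 250 bases before to 50 after a start) matched 4 of the 7 members with 5 promoters. Of these 5, 4 are shown, since they set F8 and Tfpi, both abundant in LSECs, beside F3, which had no UMI there. Capitals mark matches, on either strand, to 4 motifs. For the KLF family of shear-responsive and related factors the letters searched were CCACCC. For the ETS factors of endothelium they were CCGGAA. For GATA factors, which endothelium also uses, they were AGATAA. For the TATA box, where general factors may assemble, they were TATAAA. No match overlaps another in these windows.
F8 promoter, chrX:75379992-75380291, minus strand: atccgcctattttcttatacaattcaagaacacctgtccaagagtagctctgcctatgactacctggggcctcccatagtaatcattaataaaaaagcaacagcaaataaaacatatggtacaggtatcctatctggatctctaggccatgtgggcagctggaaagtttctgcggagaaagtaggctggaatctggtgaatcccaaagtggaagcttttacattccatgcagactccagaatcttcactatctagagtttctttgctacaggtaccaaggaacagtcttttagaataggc
Tfpi promoter 1, chr2:84476710-84477009, minus strand: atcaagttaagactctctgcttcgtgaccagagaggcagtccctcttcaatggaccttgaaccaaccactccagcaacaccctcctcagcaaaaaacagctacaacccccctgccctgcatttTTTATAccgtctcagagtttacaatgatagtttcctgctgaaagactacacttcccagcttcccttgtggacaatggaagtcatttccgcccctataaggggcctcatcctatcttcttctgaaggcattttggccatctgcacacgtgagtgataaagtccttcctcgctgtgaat
Tfpi promoter 2, chr2:84474125-84474424, minus strand: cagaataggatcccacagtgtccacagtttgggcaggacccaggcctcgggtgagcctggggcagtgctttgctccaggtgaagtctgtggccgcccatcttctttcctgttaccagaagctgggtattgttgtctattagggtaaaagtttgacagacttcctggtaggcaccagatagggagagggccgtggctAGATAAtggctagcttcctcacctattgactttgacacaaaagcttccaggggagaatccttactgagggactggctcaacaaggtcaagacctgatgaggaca
F3 promoter, chr3:121723287-121723586, plus strand: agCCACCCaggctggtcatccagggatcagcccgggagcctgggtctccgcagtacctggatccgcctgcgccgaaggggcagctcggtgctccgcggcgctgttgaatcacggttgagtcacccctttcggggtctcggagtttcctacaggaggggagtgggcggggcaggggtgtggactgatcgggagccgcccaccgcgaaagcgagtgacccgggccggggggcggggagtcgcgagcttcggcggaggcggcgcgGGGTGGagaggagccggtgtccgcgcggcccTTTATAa
The F8 window, whose start lies inside the gene as GENCODE draws it, had 42.3% GC and held none of the 4 motifs. The F3 window had 70.3% GC, while the median GC over all promoters was 52.7%. It held KLF in 2 places, at position -248 and, on the reverse strand, at position 13 after the start. Its 1 TATA match lay on the reverse strand at position 44, also after the start. Tfpi promoter 1 held TATA on the reverse strand at position -127 from the start, and Tfpi promoter 2 held GATA at -54. The Procr window held KLF at -163. Among all 32851 promoters of the table, 31.5% held KLF, 14.9% ETS, 11.2% GATA and 13.6% TATA, so single matches of this kind are frequent. A match is a string of letters and says nothing of binding.

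LSECs held most of the F8, Tfpi and Thbd UMIs of the kept cells. F8 reached 1620 CPM in LSECs (interval 1585 to 1657) and 1.70 CPM in the other gated cells, a 952-fold ratio (586 to 1666). Tfpi reached 323 CPM in LSECs and 4.36 CPM in the other gated cells, 74.0-fold higher (54.3 to 103). Thbd reached 186 CPM in LSECs and 7.88 CPM in the other gated cells, 23.7-fold higher (18.6 to 30.4). A gene was called when it differed at least 2-fold with at least 10 CPM in the higher group and an interval that left out 1. By that rule 4 of the 7 members (F8, Tfpi, Thbd and Vwf) were higher in LSECs and none was lower, where 27.8% of 9617 genes were called higher and 21.4% lower. The count was 3 under a stricter class gate, as a mean over cells, after thinning and without suffix 3. Trimmed-mean scaling (TMM), which corrects for composition, would divide the ratios of LSECs over other gated cells by 1.18, those of LSECs over Kupffer cells by 1.21, those of vascular-gated barcodes over LSECs by 2.12 and those of central over portal LSECs by 1.09.

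**Figure D1:**
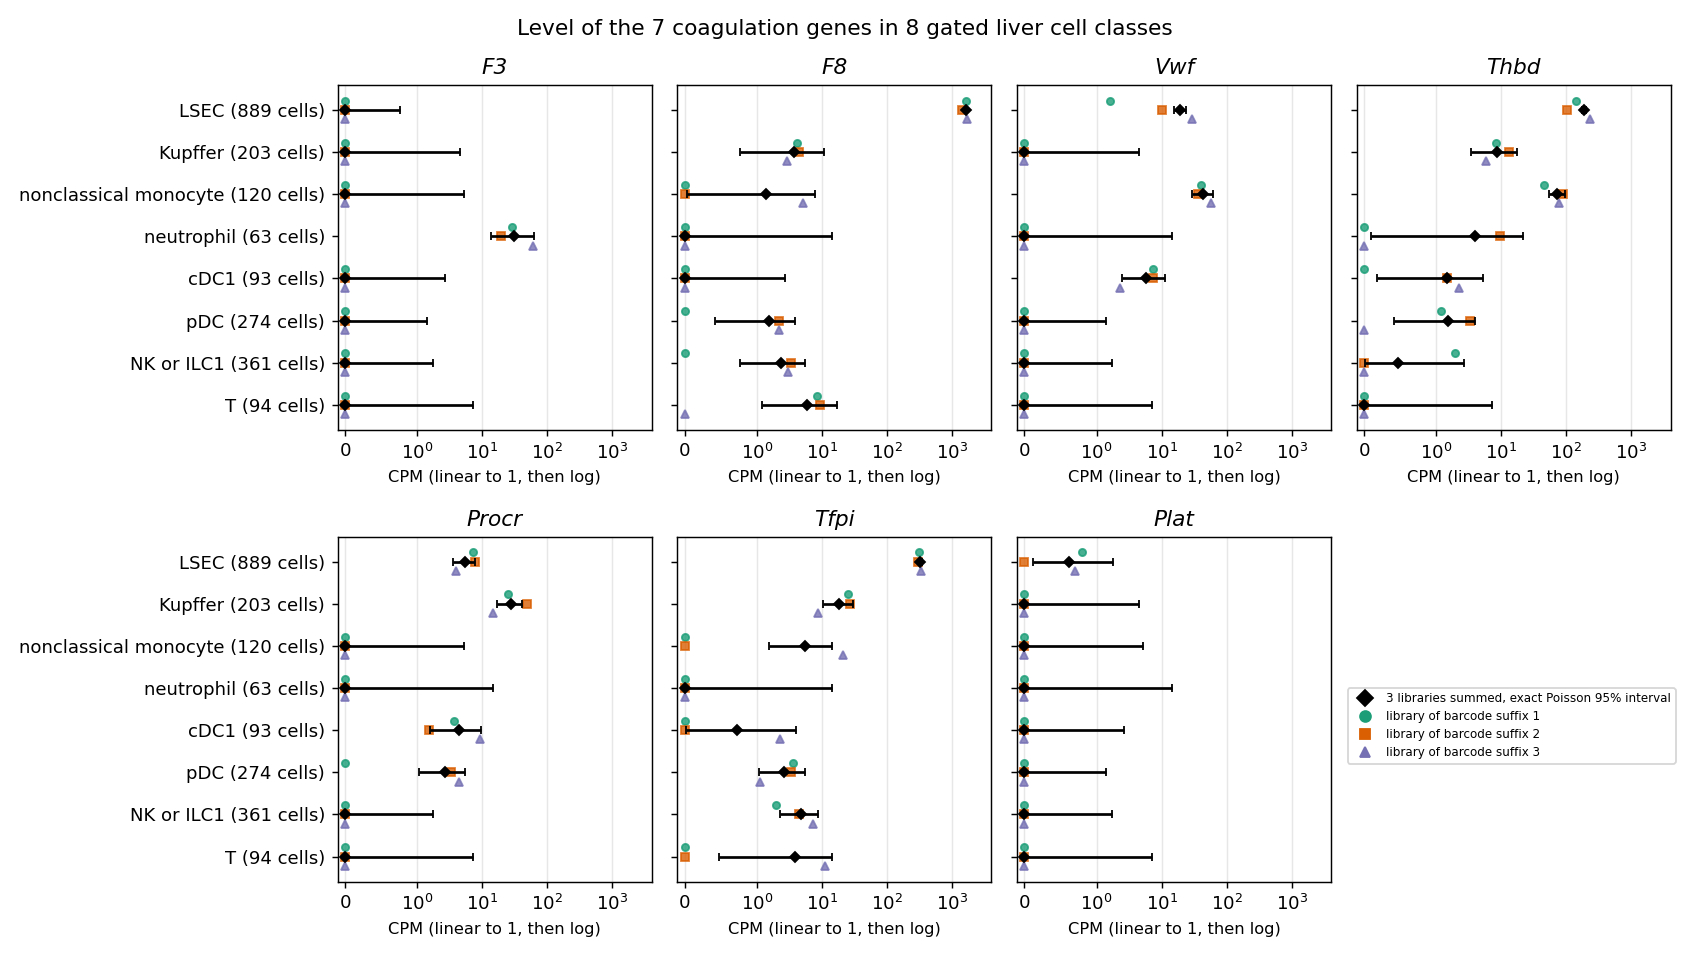
Level of each member in the 8 classes of at least 50 cells, in CPM on an axis that is linear to 1 and logarithmic above it. Black diamonds are the 3 libraries summed with exact Poisson 95% intervals and coloured symbols are single libraries. F8, Tfpi and Thbd stand highest in LSECs in every library, Procr in Kupffer cells, F3 in neutrophils, and Vwf in nonclassical monocytes.

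The F8 level in LSECs was 1625, 1430 and 1671 CPM under suffixes 1, 2 and 3. In the other gated cells together only 16 F8 UMIs were counted, 2, 8 and 6 by suffix, so the groups lay far apart in all 3 libraries. An F8 UMI was present in 800 of 889 LSECs (90.0%, 87.8 to 91.9%; median 5497 UMIs per cell), against 4 of 361 NK or ILC1 cells (1.11%; median 6105 UMIs), which are not expected to make factor VIII. With every cell thinned to 1000 UMIs the shares were 72.7% of LSECs and 0.557% of NK or ILC1 cells. After LSECs came T cells at 5.87 CPM and Kupffer cells at 3.70 CPM. From T cells downward no neighbouring classes differed beyond counting error, and classes further apart in the order were not compared.

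Tfpi was as even between libraries, at 307, 296 and 337 CPM in LSECs under suffixes 1, 2 and 3. It was detected in 565 of 889 LSECs (63.6%, 60.3 to 66.7%), and in 28.2% of them after thinning, against 9 of 361 NK or ILC1 cells (2.49%). Kupffer cells, the resident macrophages of the sinusoid, ranked next at 18.5 CPM, with 24.7, 26.8 and 8.71 CPM by suffix. In pooled counts they lay above nonclassical monocytes, at 5.57 CPM, by a ratio of 3.32 (1.06 to 13.7). The monocyte level was 0, 0 and 20.7 CPM by suffix, so the order was reversed under suffix 3. After thinning 0.617% of Kupffer cells and 1.71% of nonclassical monocytes had a Tfpi UMI. The Kupffer level lay above the low level of the remaining classes in pooled counts, although it rests on 15 UMIs in 13 of 203 cells. F8 stood at 3.70 CPM in the Kupffer gate. LSEC markers in the Kupffer gate summed to 107 CPM, and their part in the Kupffer Tfpi level was not tested.

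Thbd varied more between libraries than F8 or Tfpi, with 140, 104 and 229 CPM in LSECs under suffixes 1, 2 and 3. It was detected in 333 of 889 LSECs (37.5%, 34.3 to 40.7%), 14.5% after thinning, against 1 of 361 NK or ILC1 cells. The second class was nonclassical monocytes, the patrolling blood monocytes that crawl along vessel walls, at 72.5 CPM, with 45.5, 88.7 and 77.6 CPM by suffix. Thbd transcript was thus present in LSECs and in a monocyte class, and the LSEC level exceeded the monocyte level 2.57-fold (1.94 to 3.47). A Thbd UMI was found in 38 of 120 nonclassical monocytes (31.7%, 23.5 to 40.8%; median 5886 UMIs). Kupffer cells followed at 8.63 CPM, and below them no neighbouring classes differed beyond counting error. The LSEC over Kupffer ratio was 21.6 (10.4 to 53.9) for Thbd, 17.5 (10.6 to 31.3) for Tfpi and 438 (150 to 2125) for F8, in the same direction in 3 of 3 libraries for each. For Thbd it was 11.8 without suffix 3 and 10.1 after thinning, and for Tfpi 56.4 after thinning. In this comparison 33.2% of 9127 genes were called higher and 15% lower (26.4% and 18.7% with TMM), and 4 members (F8, Vwf, Thbd and Tfpi) were higher and Procr lower. The count of higher members was 3 under a stricter class gate, after thinning and without suffix 3, which held 83 of the 93 LSEC Vwf UMIs.

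LSECs were also split by zonal markers that include no member, with Wnt2, Rspo3, Kit, Wnt9b and Cdh13 for the central and Efnb2, Dll4, Ntn4, Ltbp4, Msr1 and Adam23 for the portal end. The gates found 49 central, 326 in-between and 514 portal LSECs, with median UMIs of 6256, 3643.5 and 6068 per cell. Suffixes 1 and 2 held only 7 central cells each, and suffix 3 held 35. Thbd and Vwf were higher in central than in portal LSECs, and F8, Tfpi and Procr were not called. These 2 calls among 7 members stand beside 5.19% of 8763 genes called higher and 2.8% called lower (4.23% and 4.06% with TMM), zonal gate genes left out.

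Thbd reached 496 CPM in central LSECs (420 to 581) and 101 CPM in portal LSECs (90.5 to 113), a ratio of 4.89 (4.002 to 5.95). Central Thbd was 266, 539 and 520 CPM by suffix, and portal Thbd was 92.9, 56.1 and 120 CPM. Every central value lay above every portal value, with library ratios of 2.86, 9.61 and 4.32. The gene was detected in 37 of 49 central cells (75.5%, 61.1 to 86.7%) and in 164 of 514 portal cells (31.9%, 27.9 to 36.1%), and after thinning in 36.2% and 8.68%. Cells between the zones had 304 CPM, so the 3 zones stood in one order in the pooled counts. Under suffix 1 the in-between value of 270 CPM lay beside the central one, which rests on 9 UMIs.

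**Figure D2:**
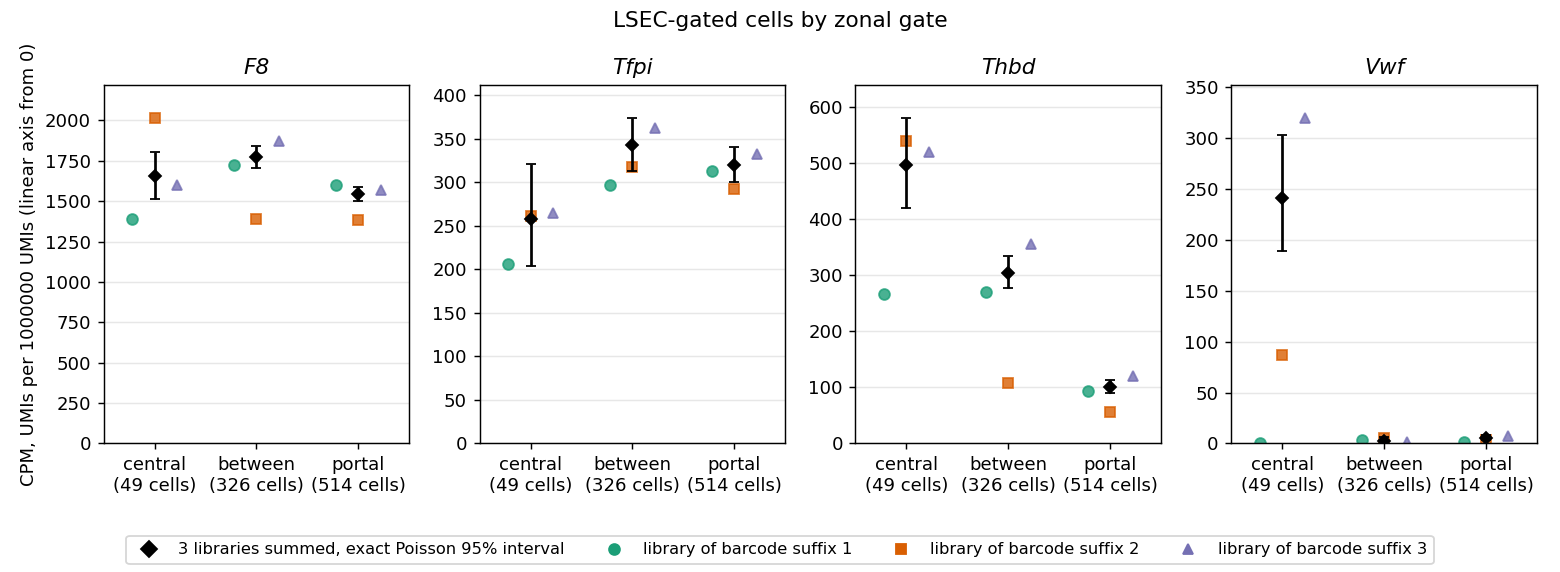
F8, Tfpi, Thbd and Vwf in central, in-between and portal LSECs, in CPM on linear axes from 0. Black diamonds are the 3 libraries summed with exact Poisson 95% intervals and coloured symbols are single libraries. Central Thbd (266 to 539 CPM) exceeds portal Thbd (56.1 to 120 CPM) in all 3 libraries, whereas central Vwf is 0 under suffix 1 and 320 CPM under suffix 3.

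A finer axis was drawn from the central share of each cell's zonal UMIs, with bins set after the data were seen, for the 786 LSECs with enough zonal UMIs. From the portal to the central end Thbd stood at 63.6, 126, 202, 559 and 504 CPM in bins of 0, over 0 to 25, over 25 to 50, over 50 to 75 and over 75 to 100% central UMIs. The steps up to the bin of over 50 to 75% had intervals that did not meet, while the last pair overlapped, with 494 to 629 CPM and 422 to 597 CPM. That order is of the pooled counts. In the last bin and the one before it Thbd was 158 and 545 CPM under suffix 1, 539 and 200 CPM under suffix 2, and 541 and 609 CPM under suffix 3, so the libraries did not share a direction there. F8 stood at 1434, 1618, 1820, 1922 and 1621 CPM over the same bins, and Tfpi at 291, 338, 370, 331 and 237 CPM. In the pooled counts both were highest inside the axis. Under suffix 2 F8 was instead highest in the last bin, at 2018 CPM. Vwf stood at 9.66, 2.10, 0, 2.05 and 278 CPM, and all but the last bin together held 17 UMIs. Vwf therefore showed no gradient but 1 high end bin, of 46 cells.

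**Figure D3:**
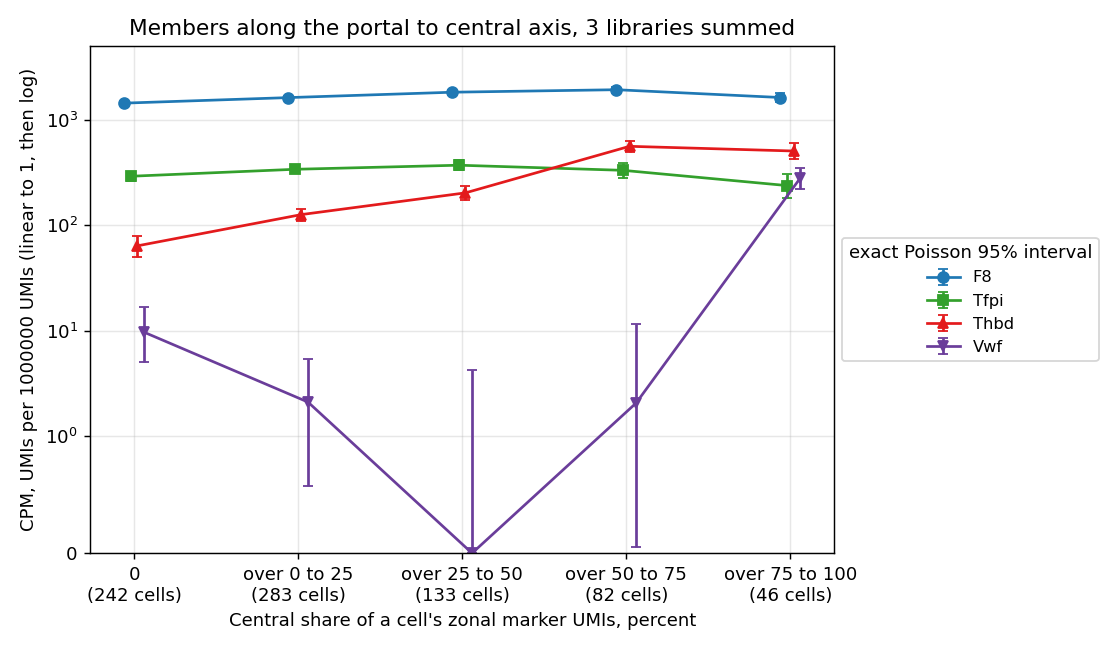
Levels of 4 members along the portal to central axis, in CPM (linear to 1, then logarithmic), against the central share of a cell's zonal marker UMIs, with the number of cells under each bin. Points are the 3 libraries summed and bars are exact Poisson 95% intervals. Thbd climbs to 559 CPM in the fourth bin, F8 stays between 1434 and 1922 CPM, Tfpi stays between 237 and 370 CPM, and Vwf reaches 278 CPM in the last bin, with at most 9.66 CPM in the others.

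F8 was close in both zones, at 1653 CPM in central and 1546 CPM in portal LSECs, with a ratio of 1.07 (0.974 to 1.17). By suffix F8 was 1387, 2018 and 1598 CPM in central cells and 1601, 1381 and 1568 CPM in portal cells, so the direction was not shared and the ranges overlapped. With TMM scaling the F8 ratio was 0.980. Tfpi was 258 CPM in central and 320 CPM in portal LSECs, a ratio of 0.805 (0.632 to 1.01), lower in central cells in 3 of 3 libraries but not called, and 1.06 when every cell counted equally. Procr had 1 UMI in central and 21 in portal LSECs, too few to compare at this depth. In contrast to Thbd, then, the factor VIII and Tfpi transcripts met no call for zone.

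Vwf was sparse in LSECs and concentrated in few cells. Its pooled level was 19.1 CPM in LSECs and 5.11 CPM in the other gated cells, a ratio of 3.73 (2.61 to 5.40), but LSEC Vwf was 1.601, 10.2 and 29.2 CPM by suffix. The library of suffix 1 went the other way, with 2 UMIs in LSECs and 12 in other gated cells, and without suffix 3 the ratio was 1.01. A stricter class gate turned it to 0.546. Only 20 of 889 LSECs had a Vwf UMI (2.25%, 1.38 to 3.45%), and 2 cells held 51 of the 93 UMIs.

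Most of these UMIs lay in central cells. Central LSECs held 74 Vwf UMIs in 8 of 49 cells, portal LSECs 16 in 9 of 514 cells, and in-between LSECs 3 in 3 of 326 cells. The level was 241 CPM in central and 5.12 CPM in portal LSECs, a ratio of 47.2 (27.2 to 86.8). It was 15.8 (8.005 to 32.1) without the 2 central cells with the most Vwf UMIs. Under a stricter class gate LSECs held only 14 Vwf UMIs, and Vwf was no longer called for zone. Thbd, at a ratio of 4.61, was then the 1 member called higher in central cells. By suffix central Vwf was 0, 87.0 and 320 CPM and portal Vwf was 1.09, 3.74 and 7.75 CPM, so the direction held in 2 of 3 libraries and suffix 1 had no central Vwf UMI in its 7 cells. Over the 5 central gate genes the LSECs with a Vwf UMI summed to 2535 CPM, against 734 CPM in LSECs without one. Most of that sum was the Wnt agonist Rspo3, at 1419 CPM against 30.6 CPM without Vwf, while Kit was 318 CPM against 356 CPM without Vwf. The 6 portal gate genes summed to 2458 CPM with and 3214 CPM without Vwf. The 20 Vwf-positive LSECs were 8 central, 9 portal and 3 in-between cells. These pooled sums therefore cannot tell whether single cells carried genes of both ends. Of the 7 vessel markers 5 were detected in the Vwf-positive LSECs, with 798 CPM summed, against 6 and 335 CPM in LSECs without Vwf. Fbln2 was 134 CPM with and 1.90 CPM without Vwf, Selp, the P-selectin of Weibel-Palade bodies, 268 and 5.70 CPM, and Sele 49.4 and 2.11 CPM in the same cells. Sox17 was 127 and 95.4 CPM and Gja4 219 and 228 CPM, with overlapping intervals, while Gja5 was 0 and 1.48 CPM and Cytl1 0 in both. They kept the LSEC markers at lower levels, such as Stab2 at 607 CPM against 1395 CPM without Vwf and Lyve1 at 791 CPM against 2028 CPM. Over the whole vascular list, 5 of 7 markers were detected in central LSECs (629 CPM summed) and 6 of 7 in portal LSECs (288 CPM summed), with Cytl1 at 0 in both and Gja5 at 0 in central cells. Their part in the Vwf result was not tested.

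Of 438 Vwf UMIs in kept cells, 218 (49.8%) lay in the 21 barcodes that passed both endothelial gates. There Vwf reached 1175 CPM (1024 to 1342), at 1132, 2659 and 738 CPM by suffix, in 18 of 21 barcodes. These barcodes had 6 of 7 vascular markers (1407 CPM summed), among them the arterial connexin gene Gja5 at 383 CPM and Fbln2 at 518 CPM, with Cytl1 at 0. The central gate genes summed to 2081 CPM there, with Rspo3 at 1396 CPM. The portal gate genes summed to 3774 CPM, with Ntn4 at 1299 CPM and Ltbp4 at 1590 CPM. Both sums pool the 21 barcodes and do not describe single ones. Stab2 was 32.3 CPM and Lyve1 259 CPM in these barcodes. Vascular and LSEC markers served to pick them out, so the levels of those markers are partly set by the selection of these barcodes. F8 was 1315 CPM (1156 to 1491) in them, Thbd 410 CPM (323 to 513) and Tfpi 178 CPM (122 to 250). F8 was thus abundant in barcodes with high Vwf, although under its level of 1620 CPM (1585 to 1657) in LSECs, few of which had any Vwf. The 4 barcodes of the vascular gate alone had 10 Vwf UMIs (1176 CPM), 13 F8 UMIs (1529 CPM), 3 Thbd UMIs and no Tfpi UMI. They held only 8502 UMIs in all, so the Tfpi interval of 0 to 434 CPM included the LSEC level of 323 CPM. Vwf was higher in these 4 barcodes than in LSECs (ratio 61.7, 28.6 to 119) in 3 of 3 libraries. Over all 8433 genes tested, 3.05% were called higher and 0.569% lower (1.21% and 3.71% with TMM). No other member was called at this depth. A further 66 Vwf UMIs were in the 764 kept barcodes that passed no gate, 47 of them in 15 barcodes with central zonal UMIs.

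**Figure D4:**
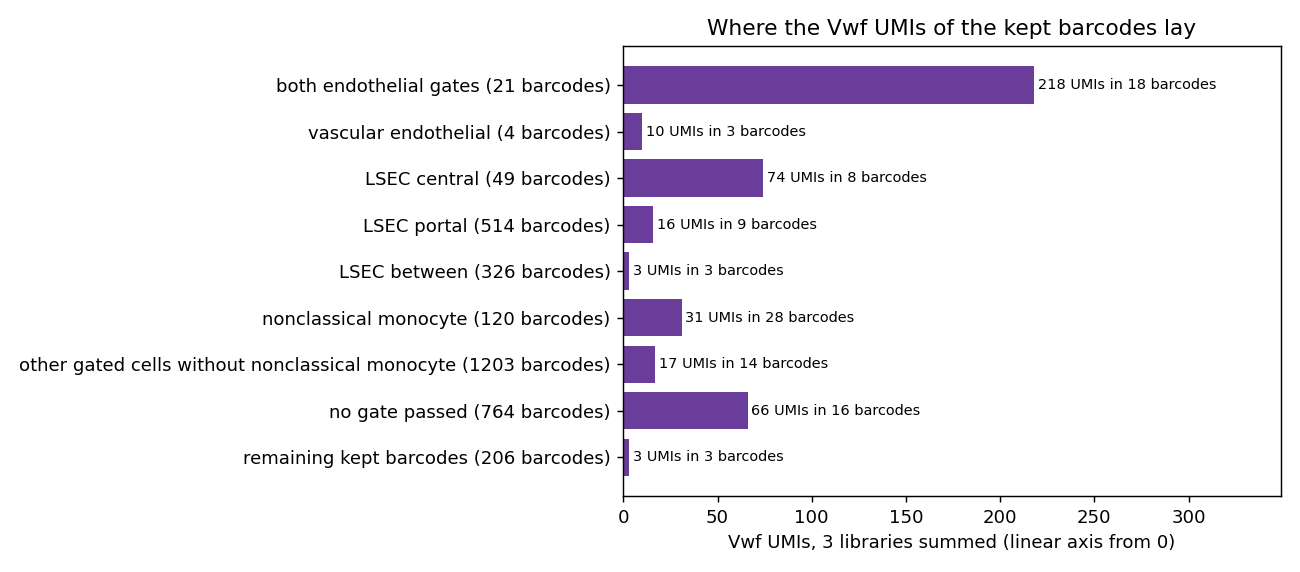
Vwf UMIs of the 3207 kept barcodes by group, 3 libraries summed, on a linear axis from 0, with the number of barcodes of each group at the left and the number with a Vwf UMI beside each bar. The 21 barcodes that passed both endothelial gates hold 218 of the 438 UMIs, central LSECs 74 and portal LSECs 16.

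Vwf was also present in nonclassical monocytes, which gave the highest level among the classes of at least 50 cells. It was 43.2 CPM (29.4 to 61.3), with 40.9, 36.1 and 56.9 CPM by suffix, and it exceeded the LSEC level 2.27-fold (1.46 to 3.44). The UMIs were spread, with 31 UMIs in 28 of 120 cells (23.3%, 16.1 to 31.9%; median 5886 UMIs) and at most 2 per cell, against 0 of 361 NK or ILC1 cells (median 6105 UMIs) and 0 of 94 T cells (median 5946 UMIs). After thinning 4.27% of nonclassical monocytes had a Vwf UMI. The 5 platelet markers Ppbp, Gp9, Itga2b, Tubb1 and Gp6 had 0 UMIs in these 120 cells. The vascular markers had 1 UMI and F8 had 1 UMI there. Thbd was 47.6 CPM (21.8 to 90.4) in the 28 monocytes with a Vwf UMI and 81.3 CPM (58.9 to 110) in the 92 without, with overlapping intervals. cDC1 dendritic cells followed LSECs at 5.79 CPM, and Kupffer cells, NK or ILC1 cells, T cells, neutrophils and pDCs had no Vwf UMI.

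Procr was low in LSECs and highest in Kupffer cells. Kupffer cells had 27.1 CPM (22 UMIs in 16 of 203 cells, 7.88%; median 3018 UMIs), at 24.7, 49.1 and 14.5 CPM by suffix, and LSECs had 5.33 CPM (26 UMIs in 22 of 889 cells, 2.47%), at 7.20, 7.62 and 3.87 CPM by suffix. The LSEC over Kupffer ratio was 0.196 (0.107 to 0.364), and LSECs were lower in 3 of 3 libraries. NK or ILC1 cells (361), T cells (94), neutrophils (63) and nonclassical monocytes (120) had no Procr UMI. cDC1 cells had 4.34 CPM (5 of 93 cells, 5.38%) and pDCs 2.65 CPM. The LSEC level was not separated from the cDC1 level (ratio 1.23, 0.494 to 3.65). Against all other gated cells the LSEC ratio was 1.32 (0.768 to 2.23). The 16 Procr-positive Kupffer cells had 0 F8 UMIs, 0 UMIs of Oit3, Gpr182, Lyve1, Bmp2 and Flt4, and 2 each of Stab2 and Clec4g. Tfpi was 49.3 CPM in them (5 UMIs) and 14.1 CPM in the Kupffer cells without Procr, and Thbd 19.7 CPM (2 UMIs) and 7.04 CPM, all with overlapping intervals. In the 21 barcodes with both endothelial gates Procr was 32.3 CPM (11.9 to 70.4), from 6 UMIs. Thus the receptor and its partner Thbd peaked in different classes among those of at least 50 cells.

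F3 was not detected in LSECs, with 0 of 889 cells, which allows a level of up to 0.615 CPM by a limit of 3 counts. Among gated classes it was found in neutrophils, at 31.1 CPM (8 UMIs in 6 of 63 cells, 9.52%; median 3866 UMIs), with 3, 2 and 3 UMIs by suffix, and in the 3 barcodes of the cholangiocyte gate, with 2 UMIs. NK or ILC1 cells had 0 of 361. Tissue factor transcript was therefore found outside the endothelial gates. Plat had 5 UMIs in all kept cells, 3 in LSECs and 2 in the 21 barcodes of both endothelial gates, and its level between classes could not be resolved at this depth.

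Within LSECs the members overlapped in the same cells to different degrees. Of the 333 LSECs with a Thbd UMI 325 also had F8 (97.6%), and of the 556 without Thbd 475 had F8 (85.4%). Because a deeper cell shows more of every gene, levels are the safer reading, and F8 was 1763 CPM in the Thbd-positive and 1496 CPM in the Thbd-negative cells. Tfpi was 329 CPM and 318 CPM in the same cells. Of the 20 Vwf-positive LSECs 13 had Thbd (65.0%, 40.8 to 84.6%), at 410 CPM, whereas 320 of the 869 Vwf-negative LSECs had it (36.8%), at 180 CPM. Within the zones the intervals overlapped, with Thbd at 630 CPM (452 to 854) in Vwf-positive and 459 CPM (378 to 553) in Vwf-negative central LSECs. In portal LSECs it was 166 CPM (83.1 to 298) with and 99.98 CPM (89.1 to 112) without Vwf. F8 was lower in Vwf-positive LSECs, at 1215 CPM (1040 to 1410), than in Vwf-negative ones, at 1633 CPM (1596 to 1669). In central LSECs F8 was 998 CPM (771 to 1273) with and 1830 CPM (1663 to 2008) without Vwf. The portal intervals overlapped, with F8 at 1362 CPM (1095 to 1674) and 1550 CPM (1506 to 1595). Without the Vwf-positive LSECs F8 was 1.18-fold higher in central than in portal cells (1.07 to 1.30), under the fold of 2 that a call needs.

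Lists of other genes of the system were read by the same rule, each as the number of genes called among those with enough CPM to be tested. Over all genes tested, 27.8% were called higher and 21.4% lower in LSECs than in other gated cells. For factor V and VIII secretion and gamma-carboxylation, 3 of 7 were higher in LSECs than in other gated cells and none lower, with a median log2 ratio of 0.99 beside 0.25 over all genes tested. The 3 were Lman1 (153 CPM, 2.98-fold) and Mcfd2 (149 CPM, 4.95-fold), which form the cargo receptor for factors V and VIII, and the carboxylase gene Ggcx (14.3 CPM, 3.96-fold). Sec24b, a coat protein of the same route, stood at 73.6 CPM and was not called. Of the plasma anticoagulants both tested genes were higher, the protein C cofactor Pros1 at 447 CPM (54.5-fold) and Tfpi2 at 25.8 CPM, while Serpinc1 was at 5.94 CPM. The thrombin receptor F2r, the single tested gene of its list, was at 767 CPM in LSECs, 35.2-fold higher. The plasma factors were scarce in LSECs, with Fgb at 8.81 CPM, Fgg at 6.35 CPM and Fga at 5.74 CPM, and both tested genes, F10 and F13a1, were lower.

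Of the fibrinolysis genes 1 of 4 tested was higher in LSECs (the urokinase gene Plau, 23.2 CPM, 12.1-fold) and 2 were lower, the urokinase receptor Plaur and Anxa2, with a median log2 ratio of -1.18. S100a10, the partner of Anxa2 in a plasminogen receptor, was at 187 CPM and not called. For Vwf storage, release and cleavage 5 of 7 were higher and none lower (median log2 ratio 1.97), led by Igfbp7 at 3318 CPM, Rab27a at 123 CPM and Stxbp5 at 67.6 CPM. So genes of this list were present in LSECs whose Vwf level was 19.1 CPM. For platelet inhibition 2 of 3 were higher, the prostaglandin synthase Ptgs1 (285 CPM, 6.03-fold) and the nitric oxide synthase Nos3 (98.0 CPM, 115-fold), and the ectonucleotidase Entpd1 was lower (6.15 CPM in LSECs). Ptgs1 stood above its LSEC level in Kupffer cells, at 486 CPM. They held 394 of the 444 Ptgs1 UMIs of the other gated cells. Among clearance receptors Stab1 was higher (1759 CPM in LSECs, 144-fold) and Lrp1 was lower (2.05 CPM in LSECs). Clec4g (2039 CPM) and Stab2 (1373 CPM) belong to that list but served as gate genes and were not counted. Of 11 regulators 4 were higher, Erg, Gata2, Ets1 and Fli1 (the last at 1.98 with TMM and then not called). Klf6 and Egr1 were lower, and the median log2 ratio was 0.32. These regulator counts lay near the shares over all genes tested, 27.8% higher and 21.4% lower. Ets1 was at 893 CPM, Mef2c at 371 CPM and the shear-responsive Klf2 at 325 CPM in LSECs.

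Between the zones the platelet-inhibition list stood beside Thbd, with 3 of 4 tested genes higher in central than in portal LSECs and none lower. Over all genes tested 5.19% were called higher and 2.8% lower. The median log2 ratio of the list was 3.53, beside 0.07 over all genes tested. Ptgs1 was 708 CPM in central and 179 CPM in portal LSECs (3.94-fold), and Entpd1 was 65.2 CPM in central and 1.92 CPM in portal LSECs (34.0-fold). Nt5e, the ectonucleotidase acting after Entpd1, had 4 UMIs in central and 1 in portal LSECs. Over all LSECs Entpd1 stood at 6.15 CPM and Nt5e at 2.46 CPM, under the minimum of 10 CPM. Both were thus tested only because of their central level, so the count and median of this list partly follow from that filter. In the Vwf list Edn1, the endothelin-1 precursor, was 160 CPM in central and 10.2 CPM in portal LSECs (15.6-fold), and Selp, a vascular gate gene, was 150 CPM and 3.84 CPM in the same zones. The 20 LSECs with a Vwf UMI held 38 of the 65 Selp UMIs of all LSECs, and their part in the zonal Selp levels was not tested. Angpt2, another Weibel-Palade cargo, ran the other way, with 0 UMIs in central and 264 in portal LSECs, at least 8.63-fold lower by the limit of 3 counts. Suffix 3 gave 35 of the 49 central cells behind these values. Anxa2 (143 CPM in central and 65.9 CPM in portal LSECs, 2.18-fold) and S100a10 (342 CPM and 164 CPM, 2.09-fold) were both higher in central cells, though at ratios of 1.995 and 1.92 with TMM neither was called, and Egr1 was lower, with 1 UMI in central and 99 in portal LSECs. In the secretion list 0 of 7 genes was called for zone, in the receptor and anticoagulant lists likewise 0 of 1 and 0 of 2.

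The genes most like each member were ranked by Pearson correlation of log2(CPM + 10) over 11 groups (8 classes with LSECs split in 3 zones, plus the 4 vascular-gated barcodes) among 6934 genes with at least 50 CPM in 1 of them. The groups share libraries and the ranks are a description. For F8 they were Ppic, Nfib and Acer2 (r = 0.999, 0.998 and 0.998), and for Tfpi Zmynd15, Asah2 and the gate gene Stab2 (r = 0.996, 0.995 and 0.995). For Thbd they were Fabp4, Flt1 and Rnase4 (r = 0.977, 0.966 and 0.964). For Vwf they were Mgp, Edn1 and Bmp4 (r = 0.960, 0.954 and 0.944), so Edn1, named above among the zonal genes, was among them. Of the 11 groups the 4 vascular-gated barcodes had the highest Vwf level, from 10 of only 8502 UMIs, and central LSECs the next. How far the Vwf ranks rest on these groups was not tested. F3, Procr and Plat were under 50 CPM in every group and were not ranked.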

How the data were processed

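Libraries were made with the 10x Genomics Chromium 3' kit, per the labels' protocols, and the submitters' processing notes name Cell Ranger, STAR, Seurat, edgeR and mm10. The matrix of UMI counts per gene and barcode was deposited by the authors without normalization, and its header gives software version 3.1.0. Kept barcodes had at least 200 genes, at most 20% mitochondrial UMIs and no Scrublet call made per suffix (scanpy 1.11.5), and cells were gated by marker UMIs, not clustered. Ratios of CPM have exact conditional 95% intervals (scipy 1.17.1). edgeR 4.0.16 gave TMM factors for an alternative only. Shares were repeated with each cell thinned to 1000 UMIs, leaving out shallower cells (816 of 889 LSECs were deep enough). The ratio step was tested on simulated counts. Named genes were the members, the 3 genes of each list highest in LSECs, list genes called for zone and the 3 genes most like each member; other called list genes were named after their values were seen. A gene of the clearance receptor list is not reported here. The members and lists were chosen with earlier results of these data known.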

Additional observations from a re-analysis of the deposited data

Results flagged for a closer look

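Member UMIs also occurred in barcodes that the comparisons did not use. In the 1408 barcodes removed by the filter (median 1760 UMIs and 29.6% mitochondrial UMIs), F8 stood at 221 CPM of non-mitochondrial UMIs, Tfpi at 66.6 CPM, Thbd at 24.03 CPM, Vwf at 13.5 CPM and Procr at 6.51 CPM. These were listed because they exceed the limit that a count of 0 allows there, 1.502 CPM. Of the removed barcodes 260 passed the LSEC gate, and on the same scale they had F8 at 1142 CPM, against 1762 CPM in kept LSECs, Tfpi at 336 CPM against 351 CPM, and Thbd at 70.2 CPM against 203 CPM.

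In the 764 kept barcodes that passed no gate, F8 stood at 9.999 CPM, Vwf at 16.9 CPM, Thbd at 9.74 CPM, Procr at 5.90 CPM and Tfpi at 4.62 CPM, all above the limit of a count of 0. Of the 66 Vwf UMIs there, 47 lay in 15 barcodes with central zonal UMIs.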

How the results depend on the processing

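No paired analysis was possible because the 3 libraries could not be assigned to treatments and were not taken as replicates. Of 237 values of 21 results under other settings, 206 lay within the interval of the reported value or, for counts of members, within 1.5 times it, 30 moved beyond it and 1 called value reversed, and the cause was not tested. Of the 192 ratios among them 13 further ones, none of a called value, lay on the other side of 1, such as LSEC over other Procr of 0.823 as a mean over cells and vascular over LSEC Thbd of 0.894 with TMM. The Vwf ratio of LSECs over other gated cells reversed to 0.546 under a stricter class gate, and was 1.61 as a mean over cells and 12.02 with the both-gate barcodes added (an alternative chosen after seeing the data). With a filter of at least 500 genes and at most 10% mitochondrial UMIs, vascular over LSEC Thbd was 7.81 and 0 members were called there. A stricter class gate gave central over portal F8 of 1.18 and 1 member called, Thbd, so that the Vwf call was lost. TMM gave vascular over LSEC F8 of 0.445. Means over cells gave LSEC over other F8 of 504, Thbd of 17.9, 2 members called in vascular over LSEC, and central over portal Tfpi of 1.06. Thinning gave LSEC over other Thbd of 15.9 and Procr of 0.311, LSEC over Kupffer Thbd of 10.1, Procr of 0.0662 and Tfpi of 56.4, vascular over LSEC Vwf of 136, and central over portal F8 of 1.24 and Vwf of 21.6. A stricter zonal gate gave central over portal Thbd of 6.82 and Tfpi of 0.627. Chosen after seeing the data, central over portal Vwf was 15.8 without the 2 top cells and 13.8 with both-gate barcodes added, and without Vwf-positive LSECs F8 was 1.18 with 1 member called. Leaving out each library in turn gave LSEC over other Vwf of 1.01 to 4.73 and Thbd of 15.4 to 29.9, vascular over LSEC Vwf of 43.4 to 233, and central over portal F8 of 0.993 to 1.17 and Vwf of 26.4 to 51.3. The values of 1.01, 15.4 and 26.4 are those without suffix 3, as is 233. Central over portal Thbd stayed between 4.39 and 6.82 in 15 alternatives. The 49 central cells and the few UMIs of Vwf, Procr, F3 and Plat limit what these counts resolve.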
